A study of Mus musculus with 4 samples.

Results

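Cluster 6 is a group of 224 cells with high Chga, out of 4449 cells (5.03%) that passed the filters of a single-cell RNA-seq study of the mouse stomach. Its members are all cells that the deposited cell annotation assigns to cluster 6 of clusters 0 to 9. No threshold on a gene was applied. Epithelial cells were sorted from the stomachs of female Rosa26iH2b-GFP mice aged 14 weeks, in which doxycycline switches on histone H2b fused to GFP, through a TRE3G promoter and the Tet-on 3G activator at the Rosa26 locus. All mice received doxycycline for 4 weeks, followed by a chase of 6 weeks without it, so that cells that had divided little kept the label. GFP+ cells were sorted within the Epcam+ epithelium and were compared with Epcam+ cells sorted without a gate on GFP, in 2 libraries each. The Epcam+ libraries can therefore hold GFP+ cells as well. Sorted cells of 2 mice were combined for loading, and no source used here says that replicate libraries came from separate mice, so the p-values measure the spread between libraries, which may be technical.

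Endocrine cells of the stomach are scattered single cells that store peptides or amines in dense-core granules and release them into the blood or onto neighbouring cells. Enterochromaffin-like cells make histamine with histidine decarboxylase (Hdc) and load it into granules with the vesicular monoamine transporter 2 (Slc18a2), and they answer to gastrin and drive acid secretion. Ghrelin cells make the appetite hormone ghrelin (Ghrl), D cells make somatostatin (Sst), which restrains acid secretion, and G cells of the antrum make gastrin (Gast). Chromogranins A and B (Chga, Chgb) are acidic proteins of the granule core that these cell types share.

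The cluster held 52 cells of GFP+ replicate 1 and 26 of GFP+ replicate 2, and 62 cells of Epcam+ replicate 1 and 84 of Epcam+ replicate 2. Their UMIs (counted molecules) summed to between 685675 and 1589274 per library. The median UMIs per cell were 28019 and 21757 in the GFP+ libraries, against 18548 and 16008 in the Epcam+ libraries, and whether this reflects sequencing depth or RNA per cell cannot be told apart. The median share of mitochondrial UMIs lay between 7.79% and 8.58%. A doublet caller marked 4 of the 224 cells and 74 of all 4449 cells. In all, 4 cell barcodes stood in more than 1 library, and 0 of them belonged to cluster 6. Genes of squamous cells were at 0 in all libraries of the cluster (5 of 5 markers). Of 4 measured mast cell markers, Mcpt2, Mcpt4 and Ms4a2 were at 0, while Kit stood between 7.29 and 11.4 CPM. Ptprc and Pecam1 were at 0 because the study had removed cells with either. The endothelial marker Plvap stood between 15.9 and 26.2 CPM.

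The 5 genes used to name the cluster were present in nearly every cell. CPM give the UMIs of a gene relative to all UMIs of the cluster in that library, scaled to a common total. Chga (ENSMUSG00000021194.6, chromosome 12, 102554969 to 102565028, + strand, protein coding, GRCm38) stood at 38677 and 36901 CPM in the GFP+ libraries, against 41470 and 41311 CPM in the Epcam+ libraries. Slc18a2 (ENSMUSG00000025094.8, chromosome 19, 59260896 to 59296012, + strand) stood at 2966 and 3150 CPM in the GFP+ libraries, against 2834 and 3338 CPM in the Epcam+ libraries. Hdc (ENSMUSG00000027360.5, chromosome 2, 126593667 to 126619299, - strand) stood at 2766 and 2869 CPM in the GFP+ libraries, against 3325 and 2574 CPM in the Epcam+ libraries. These 3 genes varied little between libraries, with SDs of 2203, 220 and 318 CPM around means of 39590, 3072 and 2883 CPM (n = 4 libraries). Chgb (ENSMUSG00000027350.8, chromosome 2, 132781278 to 132795079, + strand) stood at 4239 and 5125 CPM in the GFP+ libraries, against 5923 and 4704 CPM in the Epcam+ libraries. Ghrl (ENSMUSG00000064177.8, chromosome 6, 113716119 to 113719880, - strand) was the least even of the 5, at 72431 and 29469 CPM in the GFP+ libraries, against 47810 and 42530 CPM in the Epcam+ libraries.

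The RefSeq promoter windows of the 4 genes that mark granules and histamine are shown because their products are found together in this cluster. Each holds the 250 bases before and the 50 after the annotated start, on the strand of the gene (GRCm38.p6). They span chr12:102554691-102554990 (Chga, + strand), chr2:132781392-132781691 (Chgb, + strand), chr19:59260628-59260927 (Slc18a2, + strand) and chr2:126618629-126618928 (Hdc, - strand). Capitals mark the cyclic AMP response element TGACGTCA, its shorter form TGACG on either strand, and TATAAA, the letters of a TATA box.
Chga: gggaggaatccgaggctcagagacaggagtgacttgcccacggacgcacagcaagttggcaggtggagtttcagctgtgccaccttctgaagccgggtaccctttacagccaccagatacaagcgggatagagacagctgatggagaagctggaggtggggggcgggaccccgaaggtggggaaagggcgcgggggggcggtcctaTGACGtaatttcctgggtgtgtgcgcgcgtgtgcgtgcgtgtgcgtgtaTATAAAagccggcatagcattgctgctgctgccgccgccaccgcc
Chgb: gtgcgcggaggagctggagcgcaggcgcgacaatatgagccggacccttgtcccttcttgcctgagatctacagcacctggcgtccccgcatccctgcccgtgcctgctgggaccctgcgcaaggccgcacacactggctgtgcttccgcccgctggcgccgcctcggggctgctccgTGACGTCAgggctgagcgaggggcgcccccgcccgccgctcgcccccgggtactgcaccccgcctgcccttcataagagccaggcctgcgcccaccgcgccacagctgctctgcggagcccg
Slc18a2: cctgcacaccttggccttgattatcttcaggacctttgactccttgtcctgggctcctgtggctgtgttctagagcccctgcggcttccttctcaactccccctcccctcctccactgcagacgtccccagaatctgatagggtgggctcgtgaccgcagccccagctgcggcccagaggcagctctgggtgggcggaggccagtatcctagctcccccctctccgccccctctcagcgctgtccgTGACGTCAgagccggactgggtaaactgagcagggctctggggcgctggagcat
Hdc: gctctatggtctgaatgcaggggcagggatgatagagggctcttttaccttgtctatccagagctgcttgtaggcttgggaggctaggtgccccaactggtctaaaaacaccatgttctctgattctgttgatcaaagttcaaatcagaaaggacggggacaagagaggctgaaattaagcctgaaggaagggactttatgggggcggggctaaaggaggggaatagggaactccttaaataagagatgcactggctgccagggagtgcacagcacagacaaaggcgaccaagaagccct
The full element TGACGTCA was found in the windows of Chgb and Slc18a2. Its first base lay 72 bases before the start in Chgb and 4 bases before it in Slc18a2, where the element spans the start. Over 32851 windows of the same length, 1.79% held it. The Chga window held the shorter TGACG 44 bases before the start, a form present in 20.8% of windows and contained in every full element, and TATAAA, which 13.6% of windows held. These distances count from the RefSeq start, and TATAAA began 5 bases after it. The gene span of Chga given above begins further downstream, at 102554969, so TATAAA lies before the start of that annotation. That of Slc18a2 also begins further downstream, at 59260896, so its TGACGTCA lies before the start of that annotation. The letters CAGATG, an E-box of the kind bound by Neurod1 (17.2% of windows), were also searched on both strands and were in none of these 4 windows. The Hdc window held none of the motifs. The windows of Chgb and Hdc lie wholly inside the gene spans given above, which begin further upstream, at 132781278 for Chgb and 126619299 for Hdc. The lack of motifs therefore holds for the Hdc window shown and not for sequence before that other start. Ghrl had 4 windows and is not shown. CAGATG, on the strand opposite to the gene, was found in its windows 3 and 4 (chr6:113719405-113719704 and chr6:113719416-113719715), which overlap.

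The label of the cluster was checked against the other clusters. Because the clusters were built from expression in the same cells, all comparisons of cluster 6 with other clusters are descriptions and carry no test. Cluster 7 was the other endocrine cluster, with 88 cells, and 3 of its libraries had the 10 cells needed for a value. Of its cells, 9 were marked as doublets (10.2%), against 1.79% of those of cluster 6. Its mean of Clps, a chief cell product, was 136260 CPM, against 24379 CPM in cluster 6. Hdc had a UMI in 24 of the 88 cells and Slc18a2 in 37. How far these points set the values of cluster 7 was not tested. Mean Chga was 39590 CPM in cluster 6, against 7164 CPM in cluster 7 and at most 19.5 CPM in any other cluster. Mean Slc18a2 was 3072 CPM, against 338 CPM in cluster 7, and mean Hdc was 2883 CPM, against 347 CPM. In the remaining clusters Slc18a2 was at most 1.72 CPM and Hdc at most 1.46 CPM. Ghrl behaved differently, with 48060 CPM in cluster 6, against 67681 CPM in cluster 7, and the libraries of both clusters overlapped. Chgb was 4998 CPM in cluster 6, against 3468 CPM in cluster 7, also with overlapping libraries. After thinning each cell to 16880 UMIs, which kept 139 of the 224 cells, Chga, Chgb, Ghrl and Slc18a2 were seen in 100% and Hdc in 99.3% of cluster 6 cells. Without thinning, Ghrl was seen in 95.1% of cluster 6 cells, at a median depth of 19705 UMIs, and in 45.9% of cluster 0 mucous neck cells, at a median depth of 23534 UMIs. The level in cluster 0 was only 30.9 CPM. A single Ghrl UMI therefore does not separate these cells from others, and the classes described further on use a level instead.

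**Figure D1:**
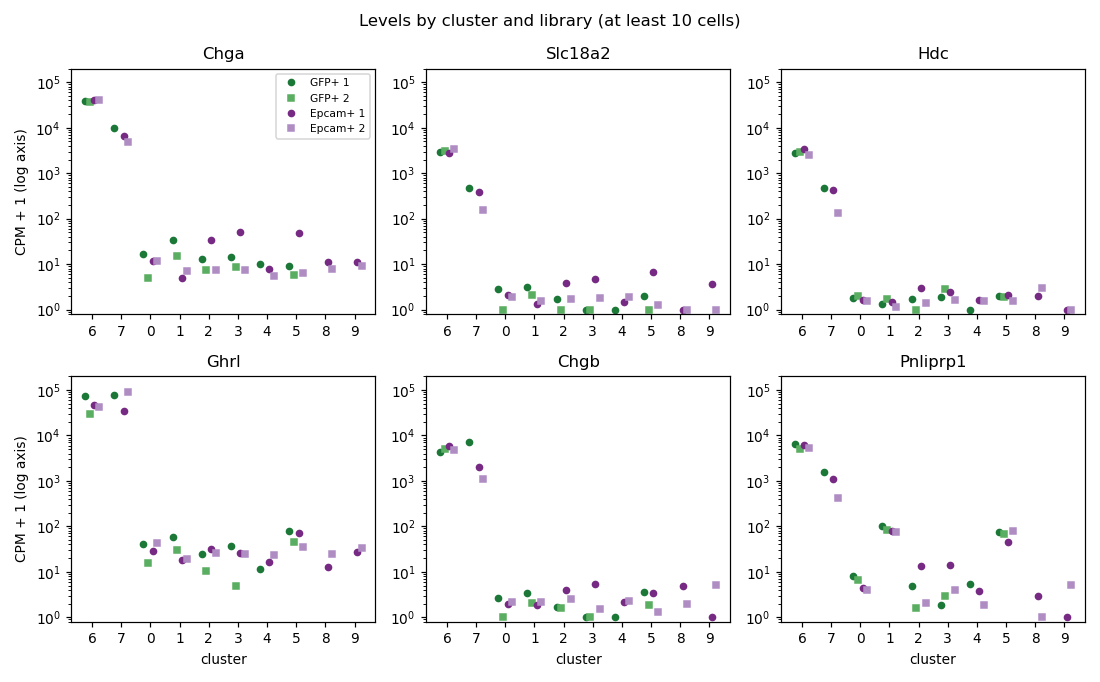
CPM plus 1 on a log axis for 5 marker genes and Pnliprp1 by cluster (x axis, cluster 6 at the left), with 1 point per library that has at least 10 cells of the cluster. Cluster 6 stands above all other clusters for Chga, Slc18a2, Hdc and Pnliprp1, while Ghrl and Chgb overlap with cluster 7.

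A gene was counted as leading in cluster 6 where its mean CPM was the highest of all clusters, its lowest cluster 6 library lay above the highest library of every other cluster, and its mean was at least 4 times that of the next cluster (1 CPM added to both). By this rule 197 of 17712 genes led (1.11% of all genes), and 937 (5.29%) led with cluster 7 left out. Over the whole transcriptome cluster 7 was by far the most similar, with Spearman's rho of 0.91 over 12882 genes, against 0.62 to 0.74 for the other clusters (a description, since genes are not replicates). Of these genes, 306 were at least 4 times higher and 243 at least 4 times lower in cluster 6 than in cluster 7. Unscaled CPM place most genes a little higher in cluster 6, since the median ratio to cluster 7 over the 10811 genes with at least 5 CPM in either cluster was 0.62 on the log2 scale, and 0.03 with TMM factors. With TMM factors 62 genes led, all 62 of them among the 197. Chga then stood 1.83 higher on the log2 scale than in cluster 7, under the 4-fold limit, while Hdc and Slc18a2 still led, and Chgb stood at -0.07.

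Apart from the naming genes, the amine genes were the list with the largest share of leading genes. Of 13 measured genes for the synthesis, transport and breakdown of amines, 6 led all clusters (46.2%, against 1.11% of all genes) and 10 led once cluster 7 was left out. Besides Hdc and Slc18a2, the leading genes were Qdpr, which recycles tetrahydrobiopterin, Maob, an amine-degrading enzyme, Th, which makes dopa, and Slc6a4, the serotonin transporter. Qdpr stood at 769 and 687 CPM in the GFP+ libraries, against 974 and 759 CPM in the Epcam+ libraries, and averaged 170 CPM in cluster 7. Maob averaged 66.0 CPM, against 14.1 CPM in cluster 7. Th and Slc6a4 were low, at 19.5 and 3.82 CPM. With TMM factors Hdc and Slc18a2, both of them naming genes, were the only 2 of the 13 to lead, while Qdpr, Maob, Th and Slc6a4 stood between 1.56 and 1.68 higher than in the next cluster on the log2 scale, under the 4-fold limit. Ddc, which decarboxylates aromatic amino acids, averaged 272 CPM in cluster 6, against 227 CPM in cluster 7, and its order turned with TMM factors, as that of Gch1 did. The serotonin route was nearly silent. Tph1, the enzyme that starts serotonin synthesis in the gut, had a UMI in 1 of the 224 cells, and 0 of 224 cells reached 200 CPM, which allows a share of up to 1.34%.

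Granule and processing genes were mostly shared with cluster 7. Of 8 granule cargo genes, Chga and Vgf led, and 7 led without cluster 7. Vgf, a granin-like precursor, averaged 280 ± 60.7 CPM (SD, n = 4), against 42.3 CPM in cluster 7. Scg5, a chaperone of prohormone convertase 2, averaged 1056 ± 47.3 CPM, against 478 CPM. Scg2, another granin, ran the other way, at 7.59 CPM in cluster 6, against 110 CPM in cluster 7. The 2 main prohormone convertases were likewise split between the clusters. Pcsk1 averaged 820 ± 109 CPM in cluster 6, against 243 CPM in cluster 7, whereas Pcsk2 averaged 89.3 ± 44.4 CPM, against 697 CPM. Pcsk1n, an inhibitor of Pcsk1, averaged 48.5 CPM in cluster 6, against 378 CPM in cluster 7. Pam, which amidates peptides, was the only leading gene of the 9 in this list, with 1538 ± 66.7 CPM, against 377 CPM in cluster 7, and it did not lead with TMM factors. Mboat4, which attaches the fatty acid that ghrelin needs for its activity, was even between libraries, at 165 and 176 CPM in the GFP+ libraries, against 169 and 158 CPM in the Epcam+ libraries. Its mean was 167 CPM in cluster 6, against 49.1 CPM in cluster 7, although Ghrl was lower in cluster 6.

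Of 19 measured peptide hormone genes, 1 led (Calca, the precursor of calcitonin and CGRP, at 22.8 CPM), and 6 were at 0. Calca had a UMI in 26.3% of cells, whereas Sst and Gast came almost wholly from a few cells. Sst averaged 3808 ± 557 CPM in cluster 6, against 45698 CPM in cluster 7. In each library, 3 cells held between 99.6% and 100% of its UMIs. Only 7 of the 224 cells (3.12%, Wilson 95% interval 1.52% to 6.31%) reached 1000 CPM of Sst. Gast was at 1718 and 871 CPM in the GFP+ libraries, against 0 and 8.90 CPM in the Epcam+ libraries. A single cell held 2731 of 2731 Gast UMIs in GFP+ replicate 1, and a single cell 596 of 597 in GFP+ replicate 2. In cluster 7 Gast stood at 13.6 CPM in GFP+ replicate 1, 0 CPM in Epcam+ replicate 1 and 26925 CPM in Epcam+ replicate 2. Gcg, the glucagon precursor, averaged 6.69 CPM, against 2111 CPM in cluster 7. With the Sst-rich and Gast-rich cells left out, 202 genes led in cluster 6, 191 of them among the 197.

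Transcription factors of the endocrine lineage showed no leading gene among 25, and 7 led without cluster 7. Insm1, a repressor needed for endocrine differentiation, averaged 321 ± 36.9 CPM in cluster 6, against 274 CPM in cluster 7, an order that turned with TMM factors. St18 and Prox1 averaged 324 and 210 CPM in cluster 6, against 121 and 95.3 CPM in cluster 7. The factors that were low in cluster 6 formed a longer list. Neurod1 averaged 5.81 CPM in cluster 6, against 125 CPM in cluster 7. Pax6 averaged 4.25 CPM, against 63.0 CPM. Isl1 averaged 36.8 CPM, against 262 CPM. Hhex, which D cells need, averaged 6.52 CPM, against 111 CPM. In all 25, 10 were higher and 15 lower in cluster 6 than in cluster 7.

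**Figure D2:**
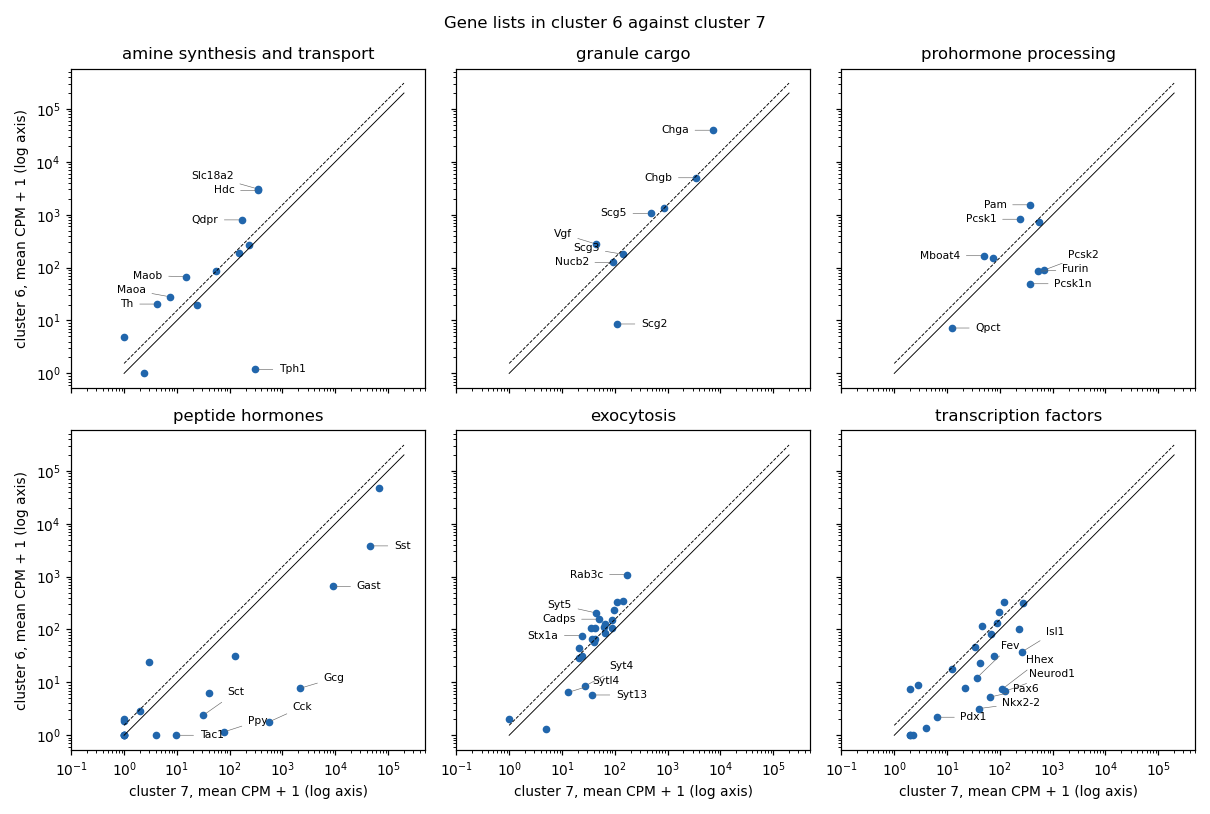
Mean CPM plus 1 of each measured gene in cluster 6 (y axis) and cluster 7 (x axis), both log axes, for 6 gene lists; the solid line marks equal CPM and the dashed line the median ratio of 0.62 on the log2 scale. Hdc, Slc18a2, Chga, Vgf and Rab3c lie above the dashed line, and Sst, Gast, Gcg, Pcsk2, Pcsk1n, Neurod1 and Pax6 lie below the solid line. The cluster 7 mean of Gast rests on Epcam+ replicate 2 (26925 CPM), against 13.6 CPM in GFP+ replicate 1 and 0 CPM in Epcam+ replicate 1.

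Genes for granule release, excitability and signal reception completed the endocrine profile. Of 25 exocytosis genes, 2 led and 14 led without cluster 7. Rab3c, a GTPase of secretory vesicles, averaged 1089 ± 109 CPM in cluster 6, against 172 CPM in cluster 7, and Syt5, a calcium sensor of vesicle fusion, averaged 205 ± 22.4 CPM, against 42.6 CPM. Snap25 and Syt7 averaged 328 and 349 CPM, against 111 and 143 CPM. Of 18 channel genes, 13 led without cluster 7. Kcnk3, a potassium leak channel that responds to external acid, was the only one to lead all clusters, at 278 and 322 CPM in the GFP+ libraries, against 201 and 217 CPM in the Epcam+ libraries, and 45.5 CPM in cluster 7. Of 23 measured receptors, Cckbr, the receptor for gastrin, led, at 130 and 131 CPM in the GFP+ libraries, against 120 and 107 CPM in the Epcam+ libraries. Its mean in cluster 7 was 13.1 CPM. Sstr2, a receptor for somatostatin, averaged 47.0 CPM, against 10.3 CPM in cluster 7. With TMM factors Rab3c and Cckbr still led, whereas Syt5 and Kcnk3 did not (1.64 and 1.80 on the log2 scale over the next cluster).

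The leading genes also included plasma proteins known from liver, which were picked out after their values were seen and are not counted as a list. Serpina7, thyroxine-binding globulin, averaged 281 ± 86.4 CPM in cluster 6, against 9.25 CPM in cluster 7, the highest ratio of all leading genes (27.5). Gc, the vitamin D-binding protein, averaged 2403 ± 247 CPM, against 238 CPM. Vtn, vitronectin, averaged 1864 ± 178 CPM, against 211 CPM. Ahsg, fetuin-A, averaged 694 ± 199 CPM, against 34.7 CPM. Other leading genes encode secreted regulators. Fst, which binds activins, averaged 1303 ± 398 CPM, against 97.9 CPM in cluster 7. Pappa2, a protease of IGF-binding proteins, averaged 1085 ± 75.4 CPM, against 113 CPM. Ccn3, a matricellular protein, averaged 1192 ± 52.9 CPM, against 136 CPM. In the clusters other than 7 these 7 genes were at 1.43 CPM or less, and all 7 also led with TMM factors.

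Some genes best known from the exocrine pancreas led as well, again picked out after their values were seen and with no list behind them. Ptf1a, the acinar lineage factor, stood at 673 and 494 CPM in the GFP+ libraries, against 836 and 706 CPM in the Epcam+ libraries. Pnliprp1, a relative of pancreatic lipase, stood at 6460 and 5122 CPM in the GFP+ libraries, against 6148 and 5202 CPM in the Epcam+ libraries. Cel, the bile salt-stimulated lipase, averaged 1599 ± 139 CPM. These genes were far lower in the chief cells of cluster 1, with 83.4 CPM of Pnliprp1, 0.80 CPM of Cel and 0.30 CPM of Ptf1a. In cluster 7 they stood at 1033, 190 and 83.6 CPM. Pnliprp1 was detected in 224 of 224 cells, Ptf1a in 217 and Cel in 214. Reg1, a secreted lectin, averaged 185 CPM, against 11.6 CPM in cluster 7, and was found in 135 of 224 cells. With TMM factors Ptf1a, Cel and Reg1 still led and Pnliprp1 did not (1.83 over cluster 7 on the log2 scale). Clps, colipase of the pancreas, did not lead, since it averaged 24379 CPM in cluster 6, against 365946 CPM in the chief cells of cluster 1.

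Within the cluster, single cells ranged widely in Ghrl and less so in the other markers. Ghrl had a median of 13750 CPM per cell, with quartiles of 1820 and 42952 CPM. Hdc had a median of 2442 CPM, with quartiles of 1486 and 3650 CPM, and Slc18a2 a median of 2960 CPM, with quartiles of 2330 and 3804 CPM. With cutoffs of 10000 CPM of Ghrl and 1000 CPM of Hdc, 123 cells (54.9%) were high in Ghrl and 184 (82.1%) high in Hdc. High levels of both genes met in 109 cells (48.7%, Wilson 95% interval 42.2% to 55.2%), while 75 cells were high in Hdc alone, 14 in Ghrl alone and 26 in neither. These classes are ranges and not types, since 43 cells lay within a factor of 2 of the Ghrl cutoff and 62 within that factor of the Hdc cutoff. Across cells of a library, Spearman's rho of Ghrl and Hdc was 0.19 and 0.30 in the GFP+ libraries and 0.02 and 0.36 in the Epcam+ libraries. These are descriptions over 26 to 84 cells that share a library and differ in depth.

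**Figure D3:**
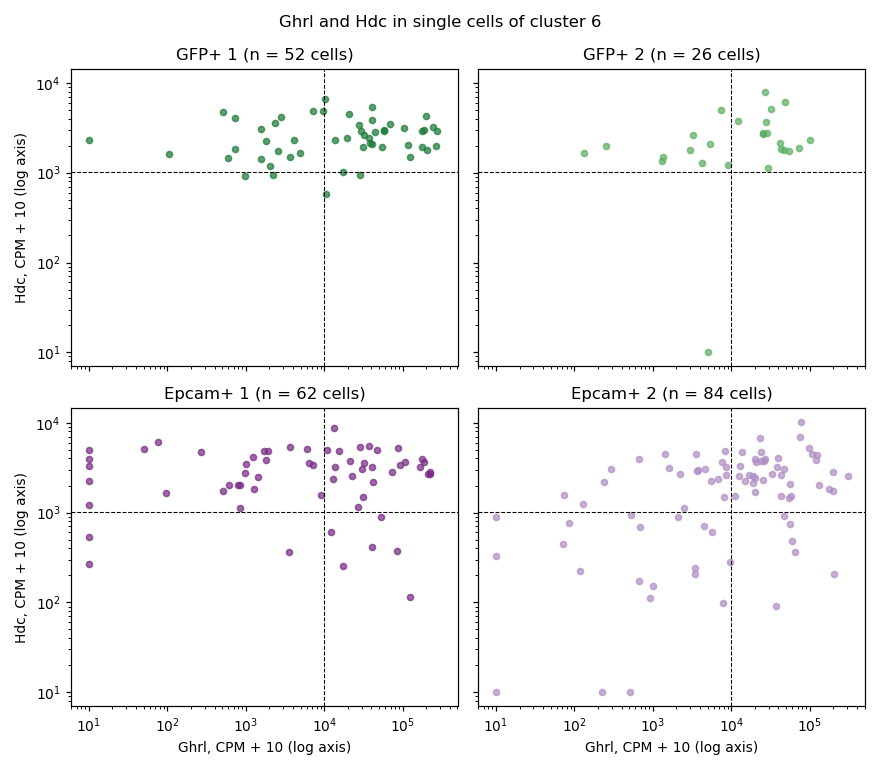
Ghrl (x axis) and Hdc (y axis) in each cell of cluster 6, as CPM plus 10 on log axes, with 1 panel per library; dashed lines mark the cutoffs of 10000 and 1000 CPM. Most cells lie above the Hdc cutoff at all levels of Ghrl, and 20 of the 26 cells under both cutoffs belong to Epcam+ replicate 2.

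Slc18a2 was the steadiest marker across these classes, with medians of 2980 CPM in cells high in both, 2653 CPM with Ghrl alone, 3170 CPM with Hdc alone and 2456 CPM with neither. Chga ran with the classes, at medians of 42838, 29147, 36128 and 25422 CPM in the same order. Pappa2 followed Hdc, with medians of 1048 CPM in cells high in both genes and 851 CPM in those high in Hdc alone, against 59.2 CPM with Ghrl alone and 30.9 CPM with neither. Fst was similar, at 940 and 237 CPM, against 0 and 0 CPM. UMIs per cell also differed, with medians of 25804 in cells high in both, 13148 with Ghrl alone, 17589 with Hdc alone and 13180 with neither. Its part in the classes was not tested. Ptf1a did not run with either gene, with medians between 484 and 717 CPM.

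By library, 48 of 52 and 25 of 26 cells of the GFP+ libraries were high in Hdc (92.3% and 96.2%), against 53 of 62 and 58 of 84 cells of the Epcam+ libraries (85.5% and 69.0%). High Ghrl was found in 61.5% and 57.7% of cells of the GFP+ libraries, against 51.6% and 52.4% of the Epcam+ libraries. Cells low in both made up 3.85% of each GFP+ library, against 4.84% and 23.8% of the Epcam+ libraries. Epcam+ replicate 2 thus stood apart in the cells low in both genes (Wilson 95% interval 16.0% to 33.9%). It was also the library with the fewest median UMIs per cell. A comparison of 2 libraries with 2 cannot reach an exact p under 0.33, so these shares carry no test. Both patterns depend on the cutoffs. With cutoffs multiplied by 2, 33 of 52 and 13 of 26 cells of the GFP+ libraries were high in Hdc, against 45 of 62 and 47 of 84 cells of the Epcam+ libraries, so that the GFP+ libraries no longer lay above the Epcam+ libraries. Cells low in both then made up 23.1% and 30.8% of the GFP+ libraries, against 17.7% and 31.0% of the Epcam+ libraries, so that Epcam+ replicate 2 no longer stood apart.

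The share of cluster 6 among all cells of a library asks whether endocrine cells are found more often among label-retaining cells. Cluster 6 made up 11.1% (Wilson 95% interval 8.59% to 14.3%) and 5.86% (4.03% to 8.44%) of the GFP+ libraries, against 3.78% (2.96% to 4.81%) and 4.43% (3.59% to 5.45%) of the Epcam+ libraries. Both GFP+ libraries were above both Epcam+ libraries, but the interval of GFP+ replicate 2 overlapped those of both Epcam+ libraries. These intervals cover counting error only. The share averaged 8.50% ± 3.73 in GFP+ libraries and 4.10% ± 0.46 in Epcam+ libraries (SD, n = 2 each), a ratio of 1.05 ± 0.37 on the log2 scale (SE, edgeR quasi-likelihood test over the clusters, adjusted p = 0.0138). The exact two-sided permutation test of the 4 shares gave p = 0.33, the smallest it can give. The call was lost without GFP+ replicate 1 (0.51, adjusted p = 0.186), without Epcam+ replicate 1 (0.94, adjusted p = 0.233) and without Epcam+ replicate 2 (1.17, adjusted p = 0.158). All of these are values of edgeR's test, in which the group left with 1 library is assumed to vary like the other, and the ratio was 1.43 without GFP+ replicate 2. The ratios without an Epcam+ library were about as large as that of all 4 libraries. Among the cells of clusters 6 and 7 only, cluster 6 took 71.2% and 76.5% in the GFP+ libraries, against 72.1% and 70.6% in the Epcam+ libraries (log2 ratio 0.03, adjusted p = 0.868, edgeR). A change of share among all cells of a library was not particular to cluster 6, since most clusters passed the same test. Chief clusters 1 and 5 rose by 1.68 and 1.16 on the log2 scale (adjusted p = 0.000151 and 0.00638, edgeR). Cluster 7 rose by 0.93 (adjusted p = 0.0588, edgeR), while clusters 2, 3, 4, 8 and 9 fell. Shares of a library sum to a whole. Surface pit cells made up 8.99% and 6.08% of the GFP+ libraries, against 22.1% and 23.8% of the Epcam+ libraries, and how far that sets the share of cluster 6 was not tested.

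**Figure D4:**
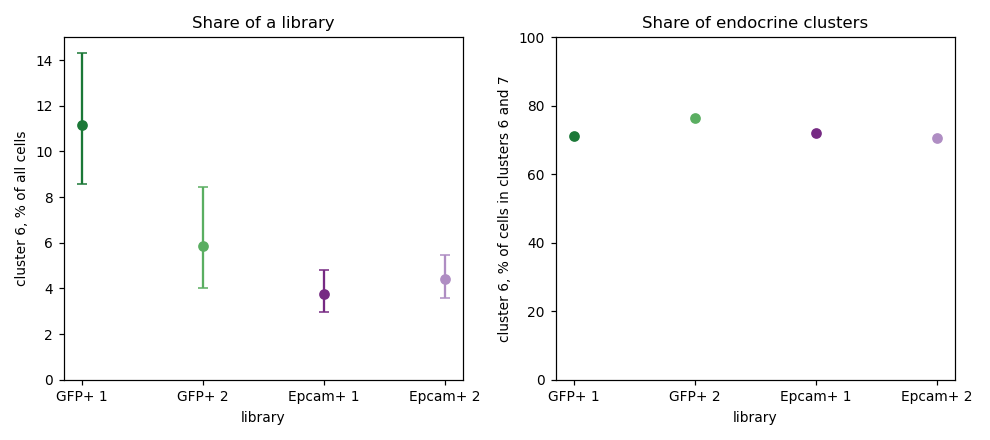
Cluster 6 as a percent of all cells of each library, with Wilson 95% intervals (left), and as a percent of the cells of clusters 6 and 7 (right). The GFP+ libraries stand at 11.1% and 5.86% and the Epcam+ libraries at 3.78% and 4.43% of all cells, while the right panel shows 71.2%, 76.5%, 72.1% and 70.6%.

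Expression in GFP+ against Epcam+ cells of the cluster was tested to ask whether label-retaining endocrine cells differ from the rest. None of the 5 naming genes passed, with edgeR or with DESeq2, and 0 of them had an unadjusted p under 0.05. Chga differed by -0.15 ± 0.10 on the log2 scale (SE, edgeR quasi-likelihood test, Benjamini-Hochberg adjusted p = 0.841), and Slc18a2 by -0.03 ± 0.10 (adjusted p = 0.978, edgeR). Hdc differed by -0.08 ± 0.13 and Chgb by -0.20 ± 0.13 (adjusted p = 0.936 and 0.836, edgeR). Ghrl differed by 0.17 ± 0.28 (adjusted p = 0.944, edgeR), and the GFP+ libraries lay on both sides of the Epcam+ libraries. Its direction depended on which GFP+ library was kept, since it stood at -0.67 without GFP+ replicate 1 and at 0.70 without GFP+ replicate 2 (adjusted p = 0.00866 and 0.0108, edgeR). With 1 GFP+ library left, these p-values take the spread from the Epcam+ libraries alone and assume that the lone library varies like them.

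Of 9960 genes tested, 22 passed at an adjusted p of 0.05 (0.221%), 6 higher (0.0602%) and 16 lower (0.161%) in GFP+ cells, and 698 had an unadjusted p under 0.05. Of the cells marked as doublets, 1 lay in GFP+ replicate 1, 0 in GFP+ replicate 2, 2 in Epcam+ replicate 1 and 1 in Epcam+ replicate 2. Without these 4 cells, 3 genes passed, and all 3 were among the 22. These were Pcsk1n, higher in GFP+ cells, and Dlk1 and Tff1, lower. A lost call did not always go with a smaller difference. Ifi27, an interferon-induced gene, stood at -0.88 with all cells and at -0.90 without the doublets (adjusted p = 0.0271 and 0.0546, edgeR), and Clps at -0.62 and -0.63 (adjusted p = 0.0433 and 0.0656, edgeR). DESeq2 called 10. The count was 14 without GFP+ replicate 2, 95 without Epcam+ replicate 1 and 110 without Epcam+ replicate 2. Libraries did not overlap for 18.5% of tested genes in the higher direction and for 18.2% in the lower.

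Genes higher in GFP+ cells included hormone-processing genes carried by few cells. Pcsk1n, an inhibitor of Pcsk1, stood at 68.6 and 86.0 TMM-normalized CPM in the GFP+ libraries, against 20.9 and 19.7 in the Epcam+ libraries. The difference was 1.89 ± 0.22 on the log2 scale (adjusted p = 0.00337, edgeR). Its UMIs were found in 13 of 52 and 8 of 26 cells of the GFP+ libraries, against 7 of 62 and 10 of 84 of the Epcam+ libraries, and 3 cells held 81.1% and 70.0% of them in GFP+ replicates 1 and 2. Gast rose by 8.06 on the log2 scale (adjusted p = 5.12e-06, edgeR), which rests on 1 cell in each GFP+ library. Pcsk2 rose by 1.23 ± 0.20 (adjusted p = 0.0271, edgeR), and 3 cells held 94.8% and 95.7% of its UMIs in the GFP+ libraries. Without the cells rich in Sst or Gast, Pcsk2 stood at -0.63 and Pcsk1n at 1.77, neither of them called. This exclusion was chosen after seeing the data.

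Of the other genes that rose, Tm4sf4 and Serpina7 were found in most GFP+ cells and Serpina1d, a relative of alpha-1-antitrypsin, in few. Tm4sf4, a membrane protein of the tetraspanin-like family, stood at 294 and 377 TMM-normalized CPM in the GFP+ libraries, against 160 and 185 in the Epcam+ libraries (log2 difference 0.94 ± 0.15, adjusted p = 0.0271, edgeR). It was detected in 44 of 52 and 23 of 26 cells of the GFP+ libraries, against 47 of 62 and 61 of 84 of the Epcam+ libraries. Serpina7 stood at 381 and 331 in the GFP+ libraries, against 198 and 224 in the Epcam+ libraries (0.76 ± 0.13, adjusted p = 0.0377, edgeR). It was detected in 34 of 52 and 19 of 26 cells of the GFP+ libraries, against 31 of 62 and 44 of 84 of the Epcam+ libraries. Serpina1d stood at 22.6 and 25.8 in the GFP+ libraries, against 1.55 and 5.09 in the Epcam+ libraries (2.74 ± 0.47, adjusted p = 0.0353, edgeR), from 35 and 18 UMIs against 2 and 8. It was detected in 12 of 52 and 8 of 26 cells, against 2 of 62 and 5 of 84. All 3 lost the call without the doublets, with adjusted p between 0.0706 and 0.0825 (edgeR) at nearly the same size, 0.91 for Tm4sf4, 0.78 for Serpina7 and 2.72 for Serpina1d.

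Among the 16 genes that fell were mucous cell genes. Tff2, a trefoil peptide of neck cells, stood at 134 and 88.8 TMM-normalized CPM in the GFP+ libraries, against 631 and 1080 in the Epcam+ libraries (-2.90 ± 0.24, adjusted p = 8.97e-05, edgeR). Tff1, the trefoil peptide of pit cells, stood at 50.4 and 30.1, against 908 and 164 (-3.63 ± 0.61, adjusted p = 0.0319, edgeR). In Epcam+ replicate 2, 1 cell held 80.4% of the Tff2 UMIs, and in Epcam+ replicate 1, 1 cell held 54.2% of those of Tff1. Without the doublets Tff2 stood at -0.96 (adjusted p = 0.0813, edgeR) and Tff1 at -1.59 (adjusted p = 0.0357, edgeR). Gkn2, Agr2, Psca, Ctse, Oit1 and Gsto1 also fell, and none of them passed without the doublets. Their sizes then differed from gene to gene. Ctse stood at -3.43 without the doublets, against -3.01 with all cells (adjusted p = 0.0825 and 0.00357, edgeR), and Agr2 at -2.90, against -3.30 (adjusted p = 0.272 and 0.0271, edgeR). Gkn2 stood at -1.62, against -2.38, Oit1 at -2.09, against -3.44, Psca at -1.28, against -1.60, and Gsto1 at -1.08, against -2.35. All of these genes but Psca were also lower in GFP+ cells of clusters 0 and 1, by less than in cluster 6 with all cells. In clusters 0 and 1, Gkn2 stood at -1.36 and -1.43, and Tff1 at -2.41 and -1.31 (edgeR). Ctse stood at -0.85 and -0.82, Tff2 at -0.33 and -0.49, Agr2 at -0.09 and -0.04, and Psca at -0.34 and 0.14.

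Summed markers of pit, neck and chief cells were also lower in the GFP+ libraries. These sums are not separate from the calls, since the lists hold Tff1 and Gkn2 (pit), Tff2 and Agr2 (neck) and Clps (chief). Tff2 alone gave 612 and 1079 CPM of the neck sums in the Epcam+ libraries. Cells marked as doublets are included in the sums. The 6 pit markers summed to 189 and 94.8 CPM in the GFP+ libraries, against 1846 and 429 CPM in the Epcam+ libraries, with none at 0. The 5 neck markers summed to 232 and 104 CPM, against 1349 and 1218 CPM, with Cftr at 0. The 9 chief products summed to 31336 and 25792 CPM, against 42058 and 44855 CPM. Pnliprp1, which led in cluster 6, is in this list and gave 6460 and 5122 CPM, against 6148 and 5202 CPM. The sums therefore do not measure chief cell RNA alone. Chief cells made up 44.3% and 66.9% of the GFP+ libraries, against 17.4% and 20.3% of the Epcam+ libraries. The part of these cells or of their RNA in the falls was not tested. With the product genes of pit, neck and chief cells left out of the totals, 18 genes passed, 17 of them among the 22.

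The remaining falls included Dlk1, an imprinted membrane protein of the Notch ligand family, and Id1, an inhibitor of differentiation factors that BMP signals induce. Dlk1 stood at 21.3 and 20.1 TMM-normalized CPM in the GFP+ libraries, against 78.0 and 62.4 in the Epcam+ libraries (-1.74 ± 0.23, adjusted p = 0.00536, edgeR). It was detected in 5 of 52 and 3 of 26 cells of the GFP+ libraries, against 8 of 62 and 9 of 84 of the Epcam+ libraries, so the difference lay in the level of few cells. Id1 stood at 91.2 and 123 in the GFP+ libraries, against 216 and 193 in the Epcam+ libraries (-0.97 ± 0.17, adjusted p = 0.0353, edgeR). It was found in 33 of 52 and 13 of 26 cells, against 42 of 62 and 53 of 84, and lost the call without the doublets at -0.81 (adjusted p = 0.152, edgeR). Id1 was also lower in GFP+ cells of clusters 0 and 1, at -0.78 and -2.66 (adjusted p = 0.224 and 0.0285, edgeR). In cluster 1 it stood at no more than 2.97 CPM.

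**Figure D5:**
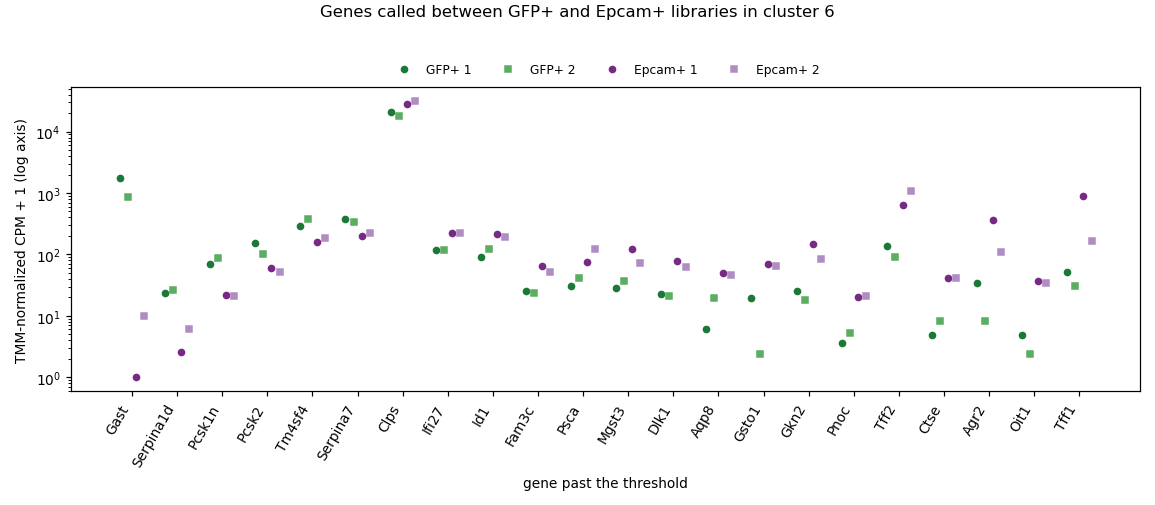
TMM-normalized CPM plus 1 on a log axis for the 22 genes that passed, ordered by log2 difference, with the GFP+ libraries left of the Epcam+ libraries for each gene. The libraries do not overlap for any of the 22, but 3 of them passed without the 4 cells marked as doublets.

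By list, few members passed. Of the 8 processing genes tested, 2 rose (Pcsk1n and Pcsk2), and of the 10 amine, 17 transcription factor, 21 exocytosis, 17 channel and 14 receptor genes tested, 0 passed by edgeR or DESeq2 at an adjusted p of 0.05 (1, 4, 0, 5 and 2 in the same order had an unadjusted p under 0.05). Among the channels, 15 of 17 had a positive difference, with a median of 0.31, against 0.00 over all 9960 genes, of which 5015 were positive. Kcnk3 stood at 285 and 317 TMM-normalized CPM in the GFP+ libraries, against 207 and 218 in the Epcam+ libraries (0.50 ± 0.13, adjusted p = 0.259, edgeR). Immediate-early genes, which cells switch on within minutes of a stimulus or of tissue handling, leaned the other way. Of 20 tested, 0 passed by edgeR or DESeq2, 7 had an unadjusted p under 0.05, 1 had a positive difference, and the median was -0.29. Libraries did not overlap in the lower direction for 9 of the 20, against 18.2% of all genes. Fosb stood at 323 and 415 in the GFP+ libraries, against 546 and 558 in the Epcam+ libraries (-0.59 ± 0.13, adjusted p = 0.135, edgeR). Ier2 stood at 230 and 307, against 499 and 425 (-0.80 ± 0.15, adjusted p = 0.0567, edgeR). The difference between GFP+ and Epcam+ cells was also set against that in other cell types. It differed from the difference in cluster 0 neck cells for 18 of 11151 genes (0.161%) and from that in cluster 1 chief cells for 48 of 12660 genes (0.379%, edgeR interaction with the library as a block). Of the 22 genes called in cluster 6, 6 and 13 passed these tests, which were not repeated without the cells marked as doublets. Members of the lists that missed the threshold are given as values and do not show that the groups were alike.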

How the data were processed

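UMI counts of single cells were deposited by the authors as raw, whole-number counts for 17712 genes in 4449 cells, with a cluster and a library for each cell. Per the labels and the study's methods, reads were counted with Cell Ranger 3.0.2 on mm10. Cells were kept with 1500 to 8000 genes, at most 15% of UMIs from mitochondrial genes and no UMI of Ptprc or Pecam1, and were clustered in Seurat on 2000 variable genes. In the table, 21 genes had no count, and 0 columns of cells were left unused.

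Counts were summed over the cells of a cluster in each library (at least 10 cells) and given as CPM. Within cluster 6, GFP+ was tested against Epcam+ with edgeR 4.0.16 in R 4.3.3 (TMM, filterByExpr, two-sided quasi-likelihood test, Benjamini-Hochberg at 0.05, no block), and cell shares with the same test on cell numbers. Differences in effect from clusters 0 and 1 were tested as interactions, blocked by library. Doublets were marked per library with Scrublet in scanpy 1.11.5 and kept in the main values. Alternatives were other scalings, DESeq2 1.42.0, filters, cutoffs, left-out libraries and left-out cells. The scripts were tested on simulated counts.

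The cells, 27 gene lists, cutoffs and tests were chosen with earlier results of these data known. Genes to name were drawn from the naming genes, members of 5 lists, the up to 5 most abundant members of the others, the 30 leading genes of highest ratio, the 15 most abundant genes, and up to 15 called genes in each direction with at least 50 CPM. Dlk1 is among the leading genes. Ptf1a, Serpina1d, Ctse, Oit1, Gsto1, Sstr2, Fosb and Ier2 fall outside the rule and were chosen after their values were seen. Positions are of GENCODE vM21 (GRCm38) and promoters of RefSeq (GRCm38.p6), in which all 5 naming genes matched. Gene starts can differ between these annotations.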

Additional observations from a re-analysis of the deposited data

Results flagged for a closer look

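The difference between GFP+ and Epcam+ cells was itself compared between cell types. It differed from that in cluster 0 neck cells for 18 of 11151 genes (0.161%), 1 higher and 17 lower in cluster 6, and from that in cluster 1 chief cells for 48 of 12660 genes (0.379%), 4 higher and 44 lower (edgeR interaction, adjusted p under the threshold). The 5 with the smallest p against cluster 0 were Gast (9.93 on the log2 scale, cluster 6 minus cluster 0), Clps (-1.82), Pgc (-2.59), Oit1 (-3.12) and Pnliprp2 (-2.03). Clps was lower in GFP+ cells of cluster 6 (-0.62) and higher in GFP+ cells of cluster 0 (1.18). Against cluster 1 they were Gast (9.48), Gkn3 (-4.69), Cel (-3.89), Chga (-2.38) and Agr2 (-3.22). Gast rests on 1 cell in each GFP+ library. For Gkn3 the libraries of cluster 6 overlapped, at 29.1 and 2.87 TMM-normalized CPM in GFP+, against 385 and 28.6 in Epcam+. In Epcam+ replicate 1, 3 cells held 89.1% of the Agr2 UMIs of cluster 6. The interaction tests were not repeated without the cells marked as doublets. For Chga and Cel the GFP+ effect in cluster 6 was -0.15 and -0.17, against 2.29 and 3.71 in cluster 1, where mean Chga was 14.6 CPM and mean Cel 0.80 CPM.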

How the results depend on the processing

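Most results on single cells and genes kept their direction, and counts of genes moved most. Genes called between GFP+ and Epcam+ cells numbered 22 (6 higher, 16 lower). They were 38 (12 and 26) without TMM factors, 10 (2 and 8) with DESeq2, 140 (46 and 94) with no filter and 3 (1 and 2) without doublets. Leaving out 1 library gave 14 to 110 (3 to 47 higher, 8 to 86 lower), and 3 were higher without the Sst-rich or Gast-rich cells. No label says whether equal replicate numbers pair the samples, and pairing was not tested. Deviations of libraries with equal numbers correlated at 0.30. With 2 libraries per group this value is the same for both pairs by construction, so it cannot decide the question. A replicate block gave 98 calls (33 and 65) and moved the share of cluster 6 to 1.01 (adjusted p = 0.134, edgeR). The log2 ratio of shares was 0.034 within clusters 6 and 7, and 0.51 to 1.43 with 1 library left out, with GFP+ replicate 2 the only one whose omission kept the call. Interaction counts were 85 (cluster 0) and 102 (cluster 1) with no filter, and 5 to 53 and 47 to 100 with 1 library left out. Leading genes numbered 937 without cluster 7, 62 with TMM factors, 818 at a fold of 2 and 33 at 8. Cutoffs multiplied and divided by 2 gave 44.6% and 63.8% for high Ghrl, 61.6% and 89.3% for high Hdc, and 31.7% and 58.9% for both. Ghrl was seen in 95.1% of cells without thinning. With 1 library left out, Ghrl ranged from -0.67 (without GFP+ replicate 1) to 0.70, Hdc from -0.27 to 0.14 (without Epcam+ replicate 1) and Slc18a2 from -0.12 to 0.073 (without Epcam+ replicate 2). The direction also turned for Pcsk2 without Sst-rich or Gast-rich cells (-0.63). Apart from the left-out cells, the cause was not tested. With 26 cells in the smallest library, low genes are the least certain.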
